A study of Homo sapiens with 6 samples.

Results

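The genes described here are 10 regulators of apoptosis, BCL2L1, MCL1, BAX, BAK1, BID, BCL2L11, BBC3, PMAIP1, BIRC2 and XIAP. They were taken by gene symbol from the deposited expression values, without use of their values. All 10 were among the 18999 features listed, and all 10 passed the filter on low values. Libraries came from MCF10A, an immortalised and non-tumorigenic human mammary epithelial line. The cells of 1 group had been transduced with retrovirus carrying the pMSCVpuro vector with the pre-miR-203a hairpin, and those of the other group with pMSCVpuro without an insert. Both groups were under puromycin selection and grew in medium with donor horse serum, epidermal growth factor, insulin, cholera toxin and hydrocortisone, so growth and survival factors were present in every culture. RNA was sequenced from 3 libraries per group, to identify genes that miR-203a targets. The labels name total RNA in one place and AGO2 immunoprecipitation in another, so levels here may be those of either. The labels do not say whether the cells were clones or pools, whether replicates were separate cultures, or how much mature miR-203a the cells held. P-values therefore cover only the spread among these 6 libraries, and that spread can be technical.

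Apoptosis through mitochondria is governed by the BCL2 family. The effectors BAX and BAK1 perforate the outer mitochondrial membrane and let cytochrome c out, and the anti-apoptotic proteins, among them Bcl-xL (from BCL2L1) and MCL1, bind and hold them. BH3-only proteins such as BIM (from BCL2L11), PUMA (BBC3), NOXA (PMAIP1) and BID tip that balance by occupying the anti-apoptotic proteins or by activating the effectors directly. Downstream, XIAP inhibits caspases, while cIAP1 (BIRC2) is a ubiquitin ligase that acts mainly in signalling from tumour necrosis factor receptors. In mammary epithelial acini, BIM is known for its part in clearing cells from the lumen. Much of this control acts on proteins, through binding, modification and turnover, and is not measured by RNA levels.

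MicroRNAs repress transcripts mostly through pairing of their seed, bases 2 to 8, with sites in the 3′ UTR. The mature miR-203a-3p (chr14:104117469-104117490, plus strand, RefSeq on GRCh38.p14) is shown with its seed in capitals, and below it every 7-base seed match in the longest annotated 3′ UTR of the members, with the match in capitals. These matches show which members carry sequence that the seed of miR-203a-3p could pair with. Matches to miR-203a-5p, the other mature product of the hairpin, were not searched. An 8mer site is CATTTCAA, a 7mer-m8 site CATTTCA and a 7mer-A1 site ATTTCAA, searched on the transcript strand, where the 8mer contains the shorter ones and each position was counted under its longest match. UTRs are from GENCODE 29 on GRCh38.
miR-203a-3p: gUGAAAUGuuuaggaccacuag
XIAP, 7mer-A1, chrX:123910013-123910041, plus strand: tataaagttcactctaggATTTCAAgtca
XIAP, 7mer-m8, chrX:123910336-123910364, plus strand: ttgttgttatattatttaCATTTCAgtag
BIRC2, 7mer-m8, chr11:102378437-102378465, plus strand: tcactgcttgttatgcatCATTTCAggag
BCL2L11, 7mer-m8, chr2:111165622-111165650, plus strand: agccacacactggtcagtCATTTCAgagg
BCL2L11, 7mer-A1, chr2:111165942-111165970, plus strand: ttcctttaggtagagatgATTTCAAtcca

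No member held an 8mer, which 7.62% of 10188 tested genes with a 3′ UTR did. A 7-base match was found in 3 of the 10 members, XIAP, BIRC2 and BCL2L11, against 34.2% of those genes for a 7mer or 8mer. PMAIP1 and MCL1 held only a 6-base match, ATTTCA, as did 17.6% of the genes. BCL2L1, BAX, BAK1, BID and BBC3 held none of these letters in UTRs of 1497, 701, 1450, 1442 and 978 bases, and 48.2% of the genes held none. The 6-base match of MCL1, the most abundant member, is shown with the match in capitals.
MCL1, 6mer, chr1:150575904-150575932, minus strand: tttgcattggcatctttggATTTCAgtct

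Reads over the listed features ranged from 7632063 to 35084590 per library, with pre-miR-203a library 3 the shallowest. MIR203A, the check of the labels, lay at 4.63 to 6.96 FPKM (reads scaled to feature length and library depth) with the empty vector and at 3699 to 24945 FPKM with the hairpin. All 9 epithelial markers were detected, with KRT5 at 353 to 702 FPKM and KRT14 as low as 0.724 FPKM. In limma 4 of the 9 differed between the groups, beside 15.8% of all tested features. KRT5 was lower at a log2 fold change of −0.68 (adjusted p of 0.0189). CDH1, KRT8 and ITGB4 were higher at 0.85, 0.93 and 0.51 (adjusted p of 0.00982, 0.00995 and 0.0491). TP63, at −0.81 and without overlap of the groups, did not pass (limma adjusted p of 0.0534). Summed over the 9 markers the level was 1111 to 1381 FPKM with the empty vector and 1094 to 1479 FPKM with the hairpin. The means of the largest parts of that sum, KRT5 and KRT17, differed in opposite directions. KRT17 was not called (limma adjusted p of 0.182), and its groups overlapped. The means of KRT5 and KRT17 were 617 and 217 FPKM with the empty vector and 383 and 388 FPKM with the hairpin. The part of these markers in the results was not tested. Of the markers of leukocytes, endothelium and fibroblasts, 5 were listed, with ITGAM, PECAM1, CDH5 and PDGFRB at or below 0.250 FPKM and DCN at 2.78 to 7.29 FPKM. Both libraries numbered 3 stood apart from the rest on the second principal component, which held 26.6% of the variance. In pre-miR-203a library 3 the difference from the other 2 libraries of its group followed GC content, and counts are therefore also given without both libraries numbered 3.

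The members covered a wide range of transcript levels in these cells. MCL1 was the highest, with a mean over the 6 libraries of 122 FPKM, above 97.8% of tested features. BCL2L1 at 73.4 FPKM and BAX at 52.5 FPKM came next. BAK1 at 17.1 FPKM, BIRC2 at 16.9 FPKM and BID at 10.6 FPKM formed a middle range. PMAIP1 at 5.19 FPKM, XIAP at 4.95 FPKM, BCL2L11 at 2.64 FPKM and BBC3 at 1.58 FPKM were the lowest, with BBC3 above only 9.65% of tested features. Neighbours in this order had overlapping ranges over the libraries, except BAX against BAK1 and BID against PMAIP1. FPKM is per length, here that of all annotated exons of a gene joined. For BID that is 4446 bases against 2495 in its longest transcript, and for BAK1 it is 2212 in both. Levels can therefore be compared between genes only roughly, and near neighbours in this order could change place with another length. By FPKM the BH3-only transcripts were each less abundant than those of both anti-apoptotic members in every library. Their summed FPKM was 18.9 to 22.9 with the empty vector and 17.2 to 20.4 with the hairpin.

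**Figure D1:**
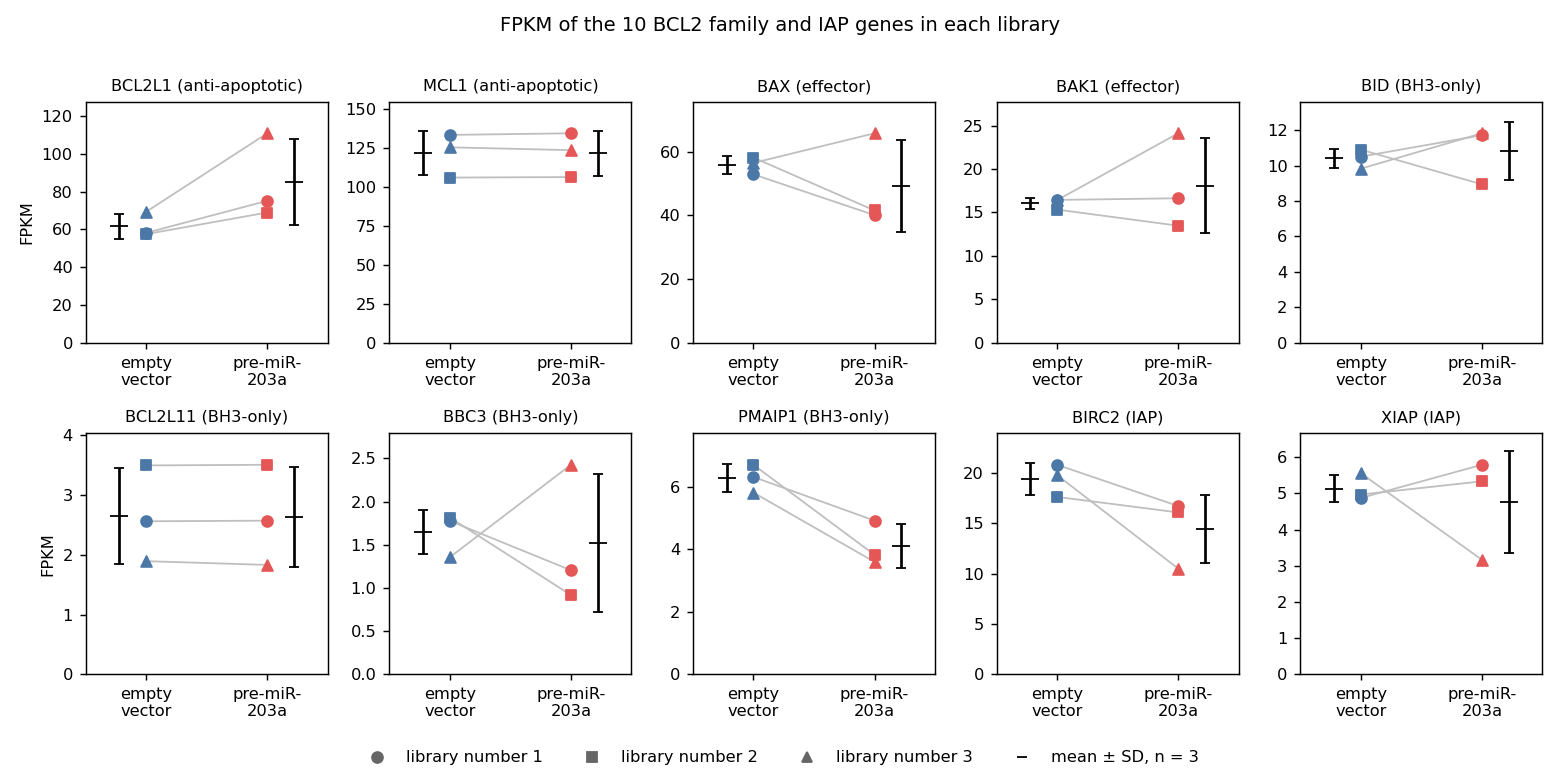
FPKM of the 10 members (linear axis from 0, scaled per panel) in the 3 empty-vector and 3 pre-miR-203a libraries; points are libraries, lines join the same number, and black marks are mean ± SD (n = 3). The PMAIP1 and BIRC2 values of the groups do not overlap, and pre-miR-203a library 3 is the highest or the lowest library for several members.

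Between the groups, most of the 10 transcripts differed by no more than the libraries did among themselves. PMAIP1, the transcript of NOXA, fell with the hairpin, and it was the only member that passed the test, limma on log2(FPKM + 1) with adjustment over all 11271 tested features at an adjusted p under 0.05. That is 1 of 10 members, beside 15.8% of all tested features called in either direction, of which 9.18% lower and 6.59% higher. At an unadjusted p under 0.05, 2 of 10 members passed beside 30.1% of features, and in 2 of 10 the groups did not overlap beside 37.5% of features. The median log2 fold change of pre-miR-203a over empty vector was −0.06 for the members and −0.01 for all tested features. None of these shares puts the members above the background. In libraries of many cells, fewer cells of a kind and less RNA per cell cannot be told apart.

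The anti-apoptotic members were BCL2L1 and MCL1. BCL2L1 (ENSG00000171552, chr20:31664452-31723989, minus strand, hg38) encodes Bcl-xL and, by splicing, the shorter pro-apoptotic Bcl-xS, which gene-level values do not separate, and its exons overlap the antisense transcript ABALON over 1424 bases. Its level was 58.2, 57.5 and 69.3 FPKM in empty-vector libraries 1, 2 and 3, and 75.2, 69.0 and 110.9 FPKM in pre-miR-203a libraries 1, 2 and 3. Each pre-miR-203a library was above the empty-vector library of its number, by 1.29, 1.20 and 1.60 times, but library 2 lay just under the highest empty-vector library. The means were 61.7 ± 6.62 FPKM (SD, n = 3) and 85.0 ± 22.6 FPKM (SD, n = 3), and the log2 fold change was 0.43 ± 0.19 (SE) at a limma adjusted p of 0.179. Without both libraries numbered 3 it was 0.31 at a limma adjusted p of 0.0460, so the call turned on those libraries. In the authors' deposited table the DESeq2 log2 fold change, turned to pre-miR-203a over empty vector, was 0.48 with an adjusted p of 0.130.

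MCL1 (ENSG00000143384, chr1:150574551-150579738, minus strand) encodes a short-lived protein that holds BAK1 and BIM. It was measured at 133.5, 106.2 and 125.6 FPKM with the empty vector and at 134.6, 106.5 and 123.8 FPKM with the hairpin. Libraries of the same number were close to each other, at 1.01, 1.00 and 0.986 times, while libraries of different numbers were further apart. The log2 fold change was −0.00 ± 0.14 (SE), with a 95% interval from −0.33 to 0.33, and its sign turned under several other settings. With the replicate number as a block the interval narrowed to −0.26 to 0.26, so a change of that size or less is not excluded by it.

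The effectors showed no call in the comparison of all 6 libraries. BAX (ENSG00000087088, chr19:48954815-48961798, plus strand), which moves from the cytosol to mitochondria when activated, was at 52.9, 58.2 and 56.5 FPKM with the empty vector and at 40.1, 41.6 and 65.8 FPKM with the hairpin. Pre-miR-203a libraries 1 and 2 lay below every empty-vector library and library 3 above every one of them. The log2 fold change was −0.22 ± 0.19 (SE) at a limma adjusted p of 0.510. Without pre-miR-203a library 3 it was −0.44 at a limma adjusted p of 0.0195, and without both libraries numbered 3 it was −0.43 with an adjusted p of 0.0215. BAK1 (ENSG00000030110, chr6:33572547-33580293, minus strand), which resides at the mitochondrial membrane, had 16.4, 15.3 and 16.4 FPKM with the empty vector and 16.6, 13.5 and 24.1 FPKM with the hairpin. Here too library 3 alone was high, and the log2 fold change of 0.12 ± 0.20 (SE) had a 95% interval from −0.34 to 0.58 and became −0.08 without both libraries numbered 3. BAK1, like XIAP, has processed pseudogenes, and how reads shared with them were assigned is not stated.

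Of the 4 BH3-only members, PMAIP1 changed. PMAIP1 (ENSG00000141682, chr18:59899948-59904306, plus strand) encodes NOXA, which binds MCL1 and favours its degradation. Its level was 6.31, 6.70 and 5.81 FPKM with the empty vector and 4.92, 3.82 and 3.60 FPKM with the hairpin. Every pre-miR-203a library lay below every empty-vector library. The means were 6.28 ± 0.445 FPKM (SD, n = 3) and 4.11 ± 0.706 FPKM (SD, n = 3), on 217, 514 and 365 reads against 179, 174 and 60 reads. It fell by 0.52 ± 0.13 (SE) on the log2(FPKM + 1) scale, at a limma adjusted p of 0.0403. In the authors' deposited table the DESeq2 log2 fold change was −0.58 with an adjusted p of 0.0368. The share of features called there was 18.3%. The direction held in every setting tried, while the call did not. It was lost on leaving out any 1 library except pre-miR-203a library 1, with adjusted p-values of 0.0585 to 0.147 in limma, and the alternatives together spanned 0.0354 to 0.147. Those fits called fewer features too, 6.61, 7.99 and 10.7% without empty-vector library 1, 2 or 3 and 7.83 and 12.8% without pre-miR-203a library 1 or 2, but 20.0% without pre-miR-203a library 3. The call was also lost without the filter on low values (7.84% of features called), with TPM (9.92%), with limma-voom on recovered reads (17.7%) and with GC correction (22.4%), and held with the replicate number as a block (17.5%).

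BCL2L11 (ENSG00000153094, chr2:111119378-111168447, plus strand), which encodes BIM and holds both kinds of 7-base match in its 3′ UTR shown above, was measured at 2.56, 3.49 and 1.89 FPKM with the empty vector and at 2.57, 3.51 and 1.83 FPKM with the hairpin. The ranges of the groups were nearly the same, and values went with the library number, with pair ratios of 1.00, 1.00 and 0.967. The log2 fold change was −0.01 ± 0.22 (SE), with a 95% interval from −0.53 to 0.51, and −0.25 to 0.23 with the replicate number as a block. Exons of BCL2L11 overlap those of MIR4435-2HG on the other strand over 727 bases, and with no strand setting given, reads of both cannot be told apart there. BBC3 (ENSG00000105327, chr19:47220822-47232766, minus strand), a p53 target, was at 1.78, 1.82 and 1.36 FPKM with the empty vector and at 1.21, 0.919 and 2.43 FPKM with the hairpin. Pre-miR-203a libraries 1 and 2 were the lowest of the 6 and library 3 the highest, on 59 to 124 reads in 5 of the 6 libraries. Its log2 fold change was −0.11 ± 0.22 (SE) in all libraries and −0.44 at a limma adjusted p of 0.0448 without both libraries numbered 3. BID (ENSG00000015475, chr22:17734138-17774770, minus strand), which caspase-8 cleaves into its active form, ranged from 9.82 to 10.9 FPKM and from 8.94 to 11.8 FPKM, with a log2 fold change of 0.04 ± 0.13 (SE).

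The IAP members are the ones with the shortest and the longest 3′ UTR among those that hold a 7-base match, 487 bases in BIRC2 and 6798 bases in XIAP. BIRC2 (ENSG00000110330, chr11:102347211-102378670, plus strand) was at 20.8, 17.6 and 19.8 FPKM with the empty vector and at 16.7, 16.1 and 10.5 FPKM with the hairpin. Each pre-miR-203a library lay below each empty-vector library, with library 3 the lowest by far. The log2 fold change of −0.43 ± 0.18 (SE) had a limma adjusted p of 0.164 and did not pass, and without both libraries numbered 3 the log2 fold change was −0.21. XIAP (ENSG00000101966, chrX:123859724-123913979, plus strand) was at 4.87, 4.96 and 5.56 FPKM with the empty vector and at 5.79, 5.33 and 3.16 FPKM with the hairpin. Pre-miR-203a libraries 1 and 2 were above the empty-vector library of their number and library 3 below every other library. The log2 fold change was −0.12 ± 0.19 (SE), with a 95% interval from −0.57 to 0.33, and it turned to 0.15 without both libraries numbered 3. None of the 3 members with a 7-base match passed the test. Over the 10188 tested genes with a 3′ UTR, those with a 7mer or 8mer had a median log2 fold change of −0.09 and those with no match of 0.03, with median UTR lengths of 2973 and 918 bases.

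The values of pre-miR-203a library 3 followed base composition. In this library the log2(FPKM + 1) values of the 4 members whose longest transcript has a GC content over 55%, BCL2L1, BAX, BAK1 and BBC3, were 0.62 to 0.74 above the mean of libraries 1 and 2. Those of the 3 members under 40%, PMAIP1, BIRC2 and XIAP, were 0.22 to 0.65 below it. MCL1 differed by 0.05, BID by 0.19 and BCL2L11 by −0.50. Across 11124 tested features with a GC content, the same difference had a median of 0.27 over 55% and of −0.37 under 40%, with a Pearson correlation of 0.460 and a Spearman correlation of 0.558, across genes that share these libraries. The differences between same-numbered libraries of the 2 groups correlated with GC content at 0.526 for number 3, but at 0.080 and −0.066 for numbers 1 and 2. Empty-vector library 3 also departed from libraries 1 and 2 of its group with GC content, in the opposite direction (Pearson −0.274, Spearman −0.297). With GC content corrected in each library and the replicate number as a block, BCL2L1 was called higher at 0.34 (adjusted p of 0.0161 in limma) and BAX lower at −0.33 (adjusted p of 0.0272). PMAIP1 then had a log2 fold change of −0.34 at a limma adjusted p of 0.0750 and was not called, and 34.4% of all features were.

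**Figure D2:**
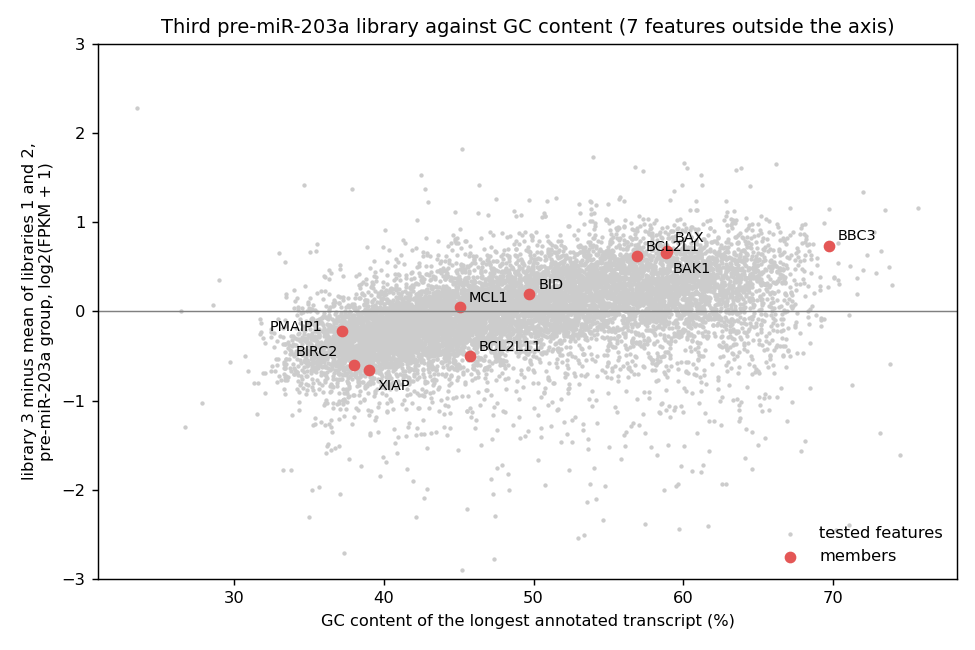
Difference of pre-miR-203a library 3 from the mean of libraries 1 and 2 of its group, in log2(FPKM + 1), against GC content of the longest transcript in percent, for 11124 tested features (grey) and the 10 members (labelled); 7 features lie outside the axis. BAX, BAK1, BCL2L1 and BBC3 lie high on the right, and BIRC2 and XIAP low on the left.

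Without both libraries numbered 3, 4 of 10 members were called, BCL2L1 higher and BAX, BBC3 and PMAIP1 lower, beside 28.3% of all features. That fit rests on 2 libraries per group and its calls are given as an alternative chosen after the data were seen. The intervals of the other 6 members included 0 in it.

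**Figure D3:**
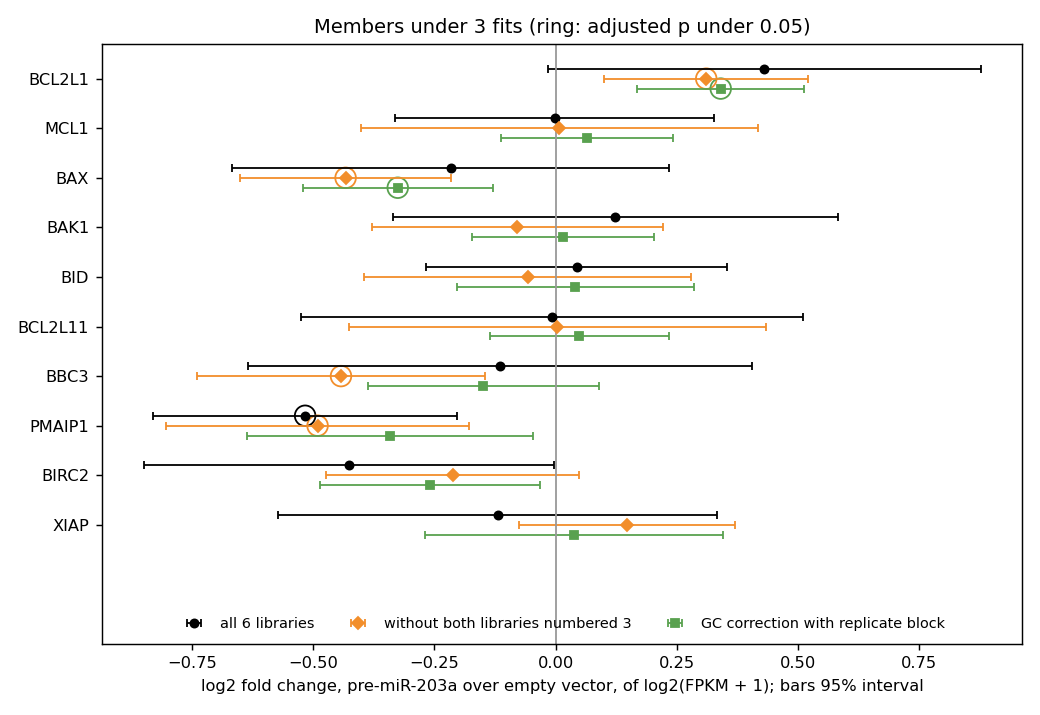
Log2 fold change of pre-miR-203a over empty vector on the log2(FPKM + 1) scale with 95% intervals for the 10 members, from all 6 libraries, without both libraries numbered 3, and after GC correction with the replicate number as a block; a ring marks an adjusted p under 0.05. BCL2L1 keeps a positive and BAX, BBC3, PMAIP1 and BIRC2 a negative value in all 3 fits, while MCL1, BAK1, BID, BCL2L11 and XIAP change sign between them.

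Ratios within a library were taken because the balance of anti-apoptotic against pro-apoptotic members is what the family is known for, here with BCL2L1, BAX and BAK1 at similar GC contents of 56.9 to 58.9%. They were chosen after the values were seen and carry no test. The BCL2L1 to BAX ratio of FPKM was 1.10, 0.989 and 1.23 with the empty vector and 1.87, 1.66 and 1.69 with the hairpin. All 3 pre-miR-203a libraries lay above all 3 empty-vector libraries, and the means were 1.11 ± 0.119 (SD, n = 3) and 1.74 ± 0.117 (SD, n = 3). The BCL2L1 to BAK1 ratio was 3.54, 3.75 and 4.22 against 4.52, 5.12 and 4.60, again without overlap. The BCL2L1 to PMAIP1 ratio was 9.22, 8.59 and 11.9 against 15.3, 18.1 and 30.8, and the groups did not overlap. PMAIP1, at a GC content of 37.2%, is not matched to BCL2L1 in GC content, which the values of pre-miR-203a library 3 followed. Against BID, BCL2L11 and BBC3 the groups overlapped. BCL2L1 was thus higher relative to the pro-apoptotic member in every pre-miR-203a library for 3 of 6 members, beside 39.9% of 11173 other tested features taken as the denominator. The ratios all share the same 6 BCL2L1 values. For MCL1 the ratio was higher in every pre-miR-203a library than in any empty-vector library for 1 of 6 members, PMAIP1, at 21.2, 15.8 and 21.6 against 27.4, 27.9 and 34.4, beside 12.9% of features.

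**Figure D4:**
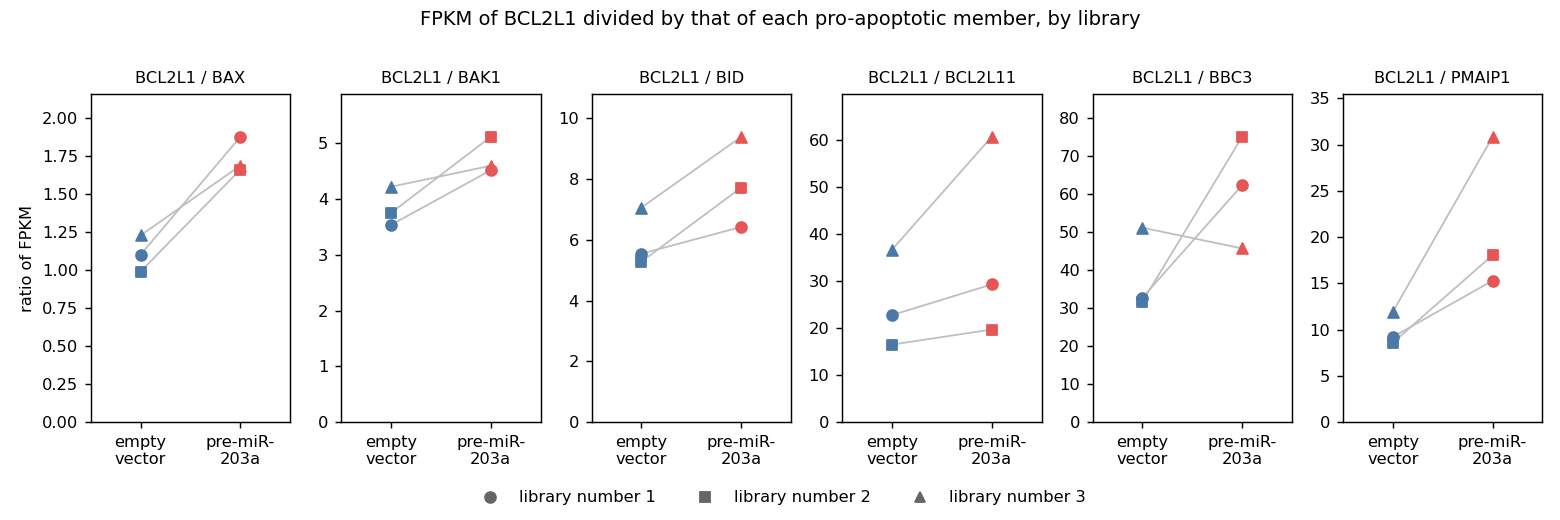
Ratio of BCL2L1 FPKM to the FPKM of each of 6 pro-apoptotic members (linear axis from 0, scaled per panel) in the 3 empty-vector and 3 pre-miR-203a libraries, with a line joining libraries of the same number. The groups separate for BAX, BAK1 and PMAIP1 and overlap for BID, BCL2L11 and BBC3.

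The features whose profile over the 6 libraries was nearest to that of PMAIP1, by Euclidean distance between centred log2(FPKM + 1) values among 11270 others, were KLC4 at 0.130, ZNF684 at 0.167 and ZC3HAV1L at 0.184. All 3 are protein-coding, with log2 fold changes of −0.49, −0.45 and −0.49.

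Around the 10 members, 56 other apoptosis genes were listed by role, of which 50 were among the listed features and 44 were tested. The test called 9 of the 44, or 20.5% beside the 15.8% of all features, 6 higher and 3 lower, and their median log2 fold change was 0.02. BMF and HRK, both among the 6, passed the filter on low values only through the hairpin group, so that they had to differ. With FPKM of 1 or more required in all 6 libraries, which leaves them out, 7 of 42 were called, 4 higher and 3 lower, beside 16.4% of features. The balance of directions changed between fits, for this list and for all features. Without both libraries numbered 3, 7 were higher and 11 lower, beside 1239 higher and 1951 lower of all features. With GC correction and the replicate number as a block, 8 were higher and 8 lower, beside 1935 higher and 1896 lower of all features. Both of these counts include BMF and HRK.

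Among the other BH3-only and BH3-like genes, BMF, whose product is held at the cytoskeleton until released, was at 0.198, 0.167 and 0.0511 FPKM with the empty vector and at 3.21, 2.89 and 1.52 FPKM with the hairpin, on 17, 32 and 8 reads against 291, 328 and 63 reads. The groups lay far apart, with pair ratios of 16.2, 17.3 and 29.6. HRK, a BH3-only gene known from neurons, was at 0.529, 0.433 and 0.396 FPKM and at 1.80, 1.52 and 1.64 FPKM, also without overlap. Both are given as values without a test. Of the 6 others in this list, BNIP3L rose and none was called lower with all libraries. Without both libraries numbered 3, BAD, BIK and BCL2L12, named after their values were seen, were called lower, with log2 fold changes of −0.41, −0.80 and −0.9996 (adjusted p of 0.0378, 0.00700 and 0.00989 in limma). In pair 3 all 3 were higher with the hairpin, by 2.03, 2.22 and 1.75 times. BNIP3L, a mitophagy receptor with a BH3-like motif, had 17.0, 16.9 and 18.0 FPKM and 29.3, 25.4 and 24.6 FPKM, a log2 fold change of 0.58 ± 0.11 (SE) at a limma adjusted p of 0.0133.

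Among 9 tested genes of the death receptor pathway, 1 fell and 1 rose, or 22.2% called beside 15.8% of all tested features. TNFRSF10A, a receptor for TRAIL, was at 18.9, 21.1 and 22.8 FPKM with the empty vector and at 12.6, 13.3 and 13.1 FPKM with the hairpin, a log2 fold change of −0.65 ± 0.11 (SE) at a limma adjusted p of 0.00955. CFLAR, which encodes the caspase-8 inhibitor c-FLIP, was at 2.27, 2.08 and 2.22 FPKM against 3.80, 3.15 and 3.09 FPKM, a log2 fold change of 0.44 ± 0.12 (SE) at a limma adjusted p of 0.0423. In both genes the libraries of the groups did not overlap, as in 37.5% of all tested features.

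Among 8 tested genes of the apoptosome and caspases, CASP6 fell and CASP9 rose, or 25% called beside 15.8% of all tested features. CASP6, an executioner caspase, was at 14.6, 14.4 and 14.5 FPKM against 10.8, 10.1 and 8.36 FPKM, a log2 fold change of −0.54 ± 0.12 (SE) at a limma adjusted p of 0.0234. CASP9, the initiator caspase that the apoptosome activates, was at 1.82, 2.22 and 2.03 FPKM against 2.85, 3.37 and 4.55 FPKM, a log2 fold change of 0.59 ± 0.16 (SE) at a limma adjusted p of 0.0451. With the replicate number as a block, 11 of the 44 other apoptosis genes were called, BMF and HRK among them, beside 17.5% of features. The calls of CASP9 and CFLAR were lost without the filter on low values and with TPM. They were also lost on leaving out any 1 library except pre-miR-203a library 3. Those of BNIP3L and BAG1 were lost with TPM and on leaving out some single libraries, and that of CASP6 on leaving out some single libraries. The calls of BIRC5 and TNFRSF10A held in every setting tried.

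The remaining lists held few calls, which stand beside the 15.8% of all tested features called. BIRC5, the mitotic IAP survivin, fell by 1.65 ± 0.28 (SE) on the log2(FPKM + 1) scale, the 1 call among 3 other IAP genes. Its 3′ UTR holds an 8mer that none of the members has. Of 776 tested genes with an 8mer, 137 were called lower and 29 higher. Beside these stand 1008 lower and 693 higher of all 10188 tested genes with a 3′ UTR. Of the 4913 with no 6-base match, 354 were lower and 377 higher. The median UTR length was 3399 bases with an 8mer, 1657 for all and 918 with no match. A 7mer-A1 match was held by BAG1, HRK and BNIP3L, which were higher. TNFRSF10A, which was lower, held 3 matches of the 7mer-m8 kind. No 7-base match was held by CASP6, also lower, or by BMF, CFLAR and CASP9, which were higher. HRK and BMF are again given without a test. The part of these sites in the changes was not tested. The BIRC5 site is printed below. It is shown for contrast with BIRC2 and XIAP.
BIRC5, 8mer, chr17:78224674-78224702, plus strand: agaaataaaaagcctgtCATTTCAAacac

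BAG1, a co-chaperone that binds BCL2, was at 8.71, 10.7 and 5.80 FPKM against 17.0, 18.8 and 15.7 FPKM, a log2 fold change of 0.98 ± 0.20 (SE) at a limma adjusted p of 0.0178, the 1 call among 13 regulators. BOK, the other effector, was at 8.33, 8.13 and 8.11 FPKM against 11.9, 9.69 and 17.9 FPKM without overlap, and its adjusted p was 0.0977 in limma and 0.0256 in the authors' deposited table. BCL2L2, which encodes Bcl-w, and HTRA2, which antagonises IAPs, had log2 fold changes of 0.06 and 0.02 and did not pass.

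BCL2 itself was under the filter on low values and is named after its values were seen. It was at 0.995, 0.729 and 0.837 FPKM with the empty vector and at 0.327, 0.363 and 0.312 FPKM with the hairpin, on 184, 301 and 283 reads against 64, 89 and 28 reads. Every pre-miR-203a library lay below every empty-vector library. Without the filter the log2 fold change was −0.47 ± 0.10 (SE) at a limma adjusted p of 0.0353. The authors' deposited table gave −1.32 with an adjusted p of 6.35e-06. Its 3′ UTR holds both kinds of 7-base match, shown for comparison with those of the members.
BCL2, 7mer-m8, chr18:63123810-63123838, minus strand: tgggccctccagatagctCATTTCAttaa
BCL2, 7mer-A1, chr18:63124356-63124384, minus strand: ggcagtgcaatggtataaATTTCAAgctg

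**Figure D5:**
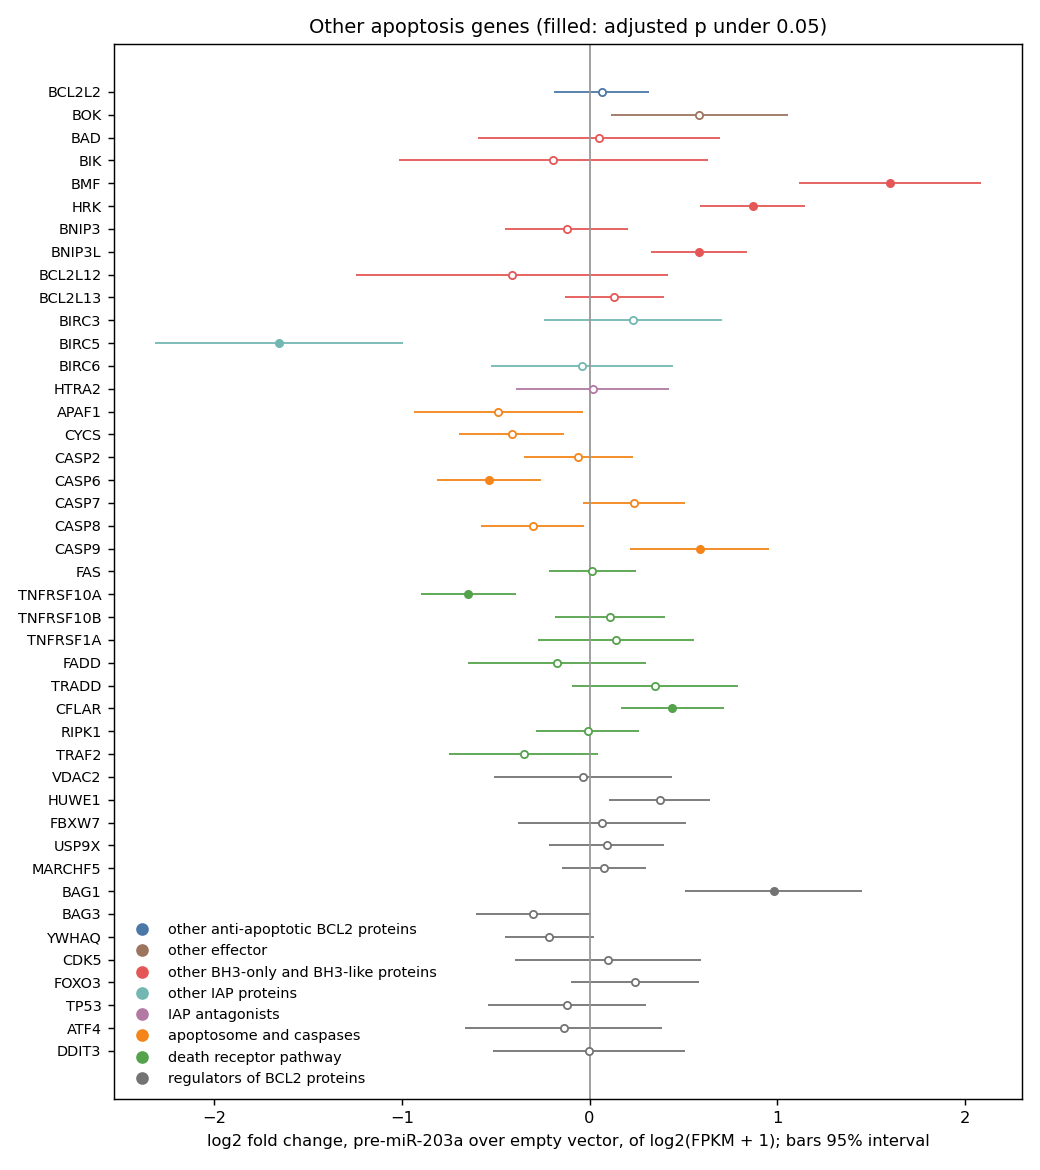
Log2 fold change of pre-miR-203a over empty vector on the log2(FPKM + 1) scale with 95% intervals for 43 of the 44 other tested apoptosis genes, coloured by list; filled points have an adjusted p under 0.05 in limma, where BMF and HRK passed the filter only through the hairpin group. BMF, BAG1 and HRK lie furthest to the right and BIRC5 furthest to the left.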

How the data were processed

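The submitters' processing notes name build hg38 and featureCounts 2.0.0, DESeq2 1.28.1, FastQC 0.11.5 and MultiQC 1.6. Aligner, annotation release and strand setting are not given in the sources used here. As to the RNA, the series text says total RNA, but the labels' extract protocol has an AGO2 immunoprecipitation followed by mRNA purification, and it could not be settled which applied. The authors deposited FPKM values, and a second table with TPM values and their own DESeq2 comparison. That deposited comparison holds a baseMean signal (the mean of size-factor-scaled reads), log2 fold changes, p-values and adjusted p-values, and its fold changes were given the opposite sign here, as pre-miR-203a over empty vector.

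Log2(FPKM + 1) was fitted by group with limma 3.58.1 (trend, robust eBayes) in R 4.3.3. The filter, FPKM of at least 1 in 3 libraries, left 11271 features. P-values were two-sided, with Benjamini-Hochberg adjustment over all of these features and calls at an adjusted p under 0.05. Fold changes on this scale understate those of low genes. No raw counts were among the deposited columns, so a count test was not used. Whole reads were recovered from FPKM and baseMean for 100% of values within 0.01 reads, and entered limma-voom as an alternative, which called 1995 features. Replicates were not copies of each other, with a chi-square of 10.1 to 79.3 per feature. Samples were grouped and numbered by their titles. Same-numbered libraries deviated together from their group means, with correlations of 0.433, 0.270 and 0.322. Libraries of different numbers correlated at −0.417 to 0.221, the highest being empty-vector library 1 with pre-miR-203a library 2. The numbers were therefore taken as pairs in the pair ratios and the replicate block, although the labels state no shared batch. The main fit did not use the pairs.

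Sites were searched in the longest 3′ UTR of GENCODE 29, which all 10 members had, and the microRNA is from RefSeq. GC content is that of the longest transcript and was corrected per library by a lowess of span 0.3. Other software was Python 3.11.15 with numpy 2.4.6, scipy 1.17.1, pandas 2.3.3 and matplotlib 3.10.9. The fits were tested on simulated data. Those data held no effect of GC content and no shared deviation of same-numbered libraries, so that test does not cover either. The members, lists and tests were chosen with earlier results of these data known. Named are every member, the called genes of each list of other apoptosis genes (up to 4, or the 1 with the smallest p) and the 3 profiles nearest to a called member. An item of these lists and a site sequence are not reported here.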

Additional observations from a re-analysis of the deposited data

How the results depend on the processing

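With 3 libraries per group, depth limits the low members most, since PMAIP1, BBC3 and BCL2L11 had 59 to 93 reads in pre-miR-203a library 3. Leaving out 1 library moved the number of features called from 1778 to between 745 and 2257, of members from 1 to between 0 and 1, and of other apoptosis genes from 9 to between 4 and 13. Without both libraries numbered 3 these counts were 3190, 4 and 18, and with GC correction and the replicate block 3831, 2 and 16. These settings, GC correction alone and the scaling by TMM factors were chosen after the data were seen. The count of members was 0 without the filter on low values, with TPM, with limma-voom and with GC correction alone. The replicate block alone changed the call of no member, and gave 1970 features, 1 member and 11 other apoptosis genes. BMF and HRK are in each of these counts of other apoptosis genes. Of 415 values of single genes under the alternatives, 335 kept direction and call, 36 lost the call, 8 gained it and 36 turned their sign, all of genes not called. Log2 fold changes with turned sign, in the order median centring, limma-voom, TMM factors, without both libraries numbered 3 and GC correction with or without the replicate block, were 0.023, 0.028, 0.030, 0.0078 and 0.065 for MCL1 and 0.017, 0.076, 0.016, 0.0037 and 0.048 for BCL2L11. Without both libraries numbered 3 they were −0.079 for BAK1, −0.058 for BID, 0.15 for XIAP and −0.19 for HTRA2, with TPM −0.051 for BID, −0.028 for BCL2L2 and −0.079 for HTRA2, with limma-voom −0.0012 for HTRA2, and with either GC correction 0.038 for XIAP and −0.094 for HTRA2. On leaving out 1 library they ranged from −0.094 to 0.30 for BAK1, −0.36 to 0.058 for BBC3, −0.18 to 0.16 for BCL2L11, −0.020 to 0.16 for BID, −0.16 to 0.18 for HTRA2, −0.097 to 0.090 for MCL1, −0.25 to 0.098 for XIAP. The cause of these shifts was not tested.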
